A study of Mus musculus with 6 samples.

Results

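P14-like CD8 T cells were the CD8 T cells of mouse skin in which the receptor segment Trbv13-3 was detected. P14 cells carry a transgenic T cell receptor, built from the alpha segment Trav14 and the beta segment Trbv13-3, that recognises a peptide of the LCMV glycoprotein on the class I molecule H2-Db. CD8 T cells with such a receptor kill cells that show the peptide by releasing perforin and granzymes, and draw other cells in by secreting chemokines. Those that stay in the epidermis or dermis are known for the adhesion molecules CD103 and CD49a, and continued antigen raises inhibitory receptors such as PD-1 on them. Members had a UMI of Cd3e, Cd3d or Cd3g, a UMI of Cd8a or Cd8b1, none of Cd4, at least 1 of Trbv13-3, fewer than 20 UMIs of Krt5 and Krt14 per 10000, and not both Mki67 and Top2a. A UMI is a molecule tag that counts each captured RNA once. The rule found 2147 cells among the 12111 cells of 4 libraries, and the series held 21178 cells in 6 libraries.

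The mice were of the NINJA strain, whose inducible cassette encodes a neoantigen, and were 6 to 12 weeks old. Labels sort the 6 libraries as NO_AG, AG or AG_CPI, with 2 per group, and the cells were sequenced with a 10x Genomics 5′ kit from skin that had received 4-OH-Tam (4-hydroxytamoxifen, which switches on Cre fused to an estrogen receptor). All groups thus shared the strain and the 4-OH-Tam. The labels do not spell out the group names, give no agent or dose for CPI, no sex and no date, and do not say how many P14 cells a mouse received. They state that each animal had been checked for skin pathology and for P14 cells in its skin before cells were prepared. The libraries of a group are labelled biological replicates, whether any pooled animals is not stated, and each is called a mouse here. AG and AG_CPI are compared below, with 2 mice each, and the P14-like cells are set beside the other CD8 T cells of the same mice, which passed the same rule but had no Trbv13-3 UMI (1651 cells).

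Members numbered 427 and 362 in the AG mice and 580 and 778 in the AG_CPI mice. Their median depth was 3366 and 2951 UMIs in AG and 2235 and 2693 in AG_CPI, and the other CD8 T cells had medians of 2455, 2221, 2129 and 2487. Any pair of libraries shared 5 to 35 cell barcodes, at most 0.856% of the smaller library. The rule's own genes set the edges of the class. The median member had 3, 2, 2 and 3 UMIs of Trbv13-3, and 22.2%, 36.2%, 45% and 28.4% of members had exactly 1. The limit on keratins left out 17, 30, 4 and 14 cells. The cells nearest to it had 9.99 to 19.4 keratin UMIs per 10000 inside and 20.7 to 21.9 outside. Cells with both Mki67 and Top2a, 62 and 125 in AG and 89 and 55 in AG_CPI, were left out as dividing. Doublets were not removed from the main set. Scrublet's highest scores marked 11 and 17 members in AG and 7 in each AG_CPI mouse.

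The label P14 was checked on transcripts the rule did not use. A 5′ library reads the start of a receptor transcript, where the V segment lies, so closely related segments have to be told apart by few bases. The second exon of the 3 genes of the Trbv13 family is shown first, because the choice of cells rests on Trbv13-3 alone, and that of Trav14-1 follows as the independent check. Capitals in Trbv13-3 mark the 16 bases at which it differs from both relatives, capitals in the relatives mark bases that differ from Trbv13-3, and capitals in Trav14-1 mark bases that differ from Trav14-2. All are on the plus strand of GRCm38, with annotation and sequence from GENCODE M21: Trbv13-3 at chr6:41130292-41130585, Trbv13-2 at chr6:41121539-41121832, Trbv13-1 at chr6:41116175-41116468 and Trav14-1 at chr14:53554247-53554558, each the coding exon 2 of its gene. The first 300 bases of the Trav14-1 exon are printed.
Trbv13-3: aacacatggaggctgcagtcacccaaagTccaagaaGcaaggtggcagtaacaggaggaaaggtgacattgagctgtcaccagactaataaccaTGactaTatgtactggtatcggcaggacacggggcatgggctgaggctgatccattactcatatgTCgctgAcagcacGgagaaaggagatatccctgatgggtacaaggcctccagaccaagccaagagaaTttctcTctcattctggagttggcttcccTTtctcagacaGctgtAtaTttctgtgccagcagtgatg
Trbv13-2: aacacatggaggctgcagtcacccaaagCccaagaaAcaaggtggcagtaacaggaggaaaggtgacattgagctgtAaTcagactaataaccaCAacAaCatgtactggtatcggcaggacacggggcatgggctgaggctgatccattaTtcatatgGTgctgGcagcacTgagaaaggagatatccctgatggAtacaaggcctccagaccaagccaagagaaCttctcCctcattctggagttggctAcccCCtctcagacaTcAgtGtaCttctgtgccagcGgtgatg
Trbv13-1: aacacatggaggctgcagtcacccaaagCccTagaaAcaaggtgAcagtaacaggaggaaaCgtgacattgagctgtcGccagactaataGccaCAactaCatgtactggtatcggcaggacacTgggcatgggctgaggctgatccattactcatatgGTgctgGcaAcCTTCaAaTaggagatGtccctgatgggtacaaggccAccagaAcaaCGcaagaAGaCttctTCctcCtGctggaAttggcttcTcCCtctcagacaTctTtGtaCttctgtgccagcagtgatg
Trav14-1: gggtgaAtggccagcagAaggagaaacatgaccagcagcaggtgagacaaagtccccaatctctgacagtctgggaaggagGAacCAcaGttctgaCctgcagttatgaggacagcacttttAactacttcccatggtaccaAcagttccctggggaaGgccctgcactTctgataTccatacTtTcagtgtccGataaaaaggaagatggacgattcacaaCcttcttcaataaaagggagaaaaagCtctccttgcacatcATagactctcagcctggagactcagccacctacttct
Trbv13-3 shared 91.8% of 294 bases with Trbv13-2 and 86.1% with Trbv13-1. Trav14-1 shared 93.6% of 312 bases with Trav14-2. Reads of such relatives can be assigned to the wrong gene. Among members, Trbv13-2 had a UMI in 2.58%, 1.93%, 2.07% and 1.54% of cells (AG 1, AG 2, AG_CPI 1, AG_CPI 2), against 10.4%, 8.31%, 7.48% and 6.38% of the other CD8 T cells.

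Most members carried the alpha segment of the P14 receptor. Trav14-1 had a UMI in 88.5% (95% exact binomial interval 85.1 to 91.4) and 78.2% (73.6 to 82.3) of the members of AG 1 and AG 2, and in 75.5% (71.8 to 79.0) and 85.1% (82.4 to 87.5) of those of AG_CPI 1 and AG_CPI 2. In the other CD8 T cells the shares were 9.02%, 20.8%, 39.0% and 31.9%. The members of every mouse thus lay above the other CD8 T cells of every mouse, while the groups overlapped among the members. Keratinocytes, which should lack the gene, had a UMI in 0.531%, 3.26%, 0.704% and 3.54% of cells, and a share at that level is background; their median depths were 6921, 2336, 3655 and 2231 UMIs. Another beta segment was found in 10.8%, 11.3%, 10.9% and 12.0% of members and in 71.4%, 40.6%, 30.2% and 46.3% of the other CD8 T cells. Intervals cover counting error only.

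The comparison class was therefore not free of cells with P14 segments, more so in AG_CPI than in AG. For that reason the calls of each comparison with the other CD8 T cells are also given against a narrower class. It held the 369, 117, 111 and 155 cells that had another beta segment and no Trav14-1. Levels and fold changes are given against the whole class alone. In NO_AG the rule found 2 and 12 cells, 1.71% and 3.40% of the CD8 T cells. None of the 12 in NO_AG 2 had a Trav14-1 UMI, which allows a share of up to 25%, taking a count of 0 to allow 3 cells.

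**Figure D1:**
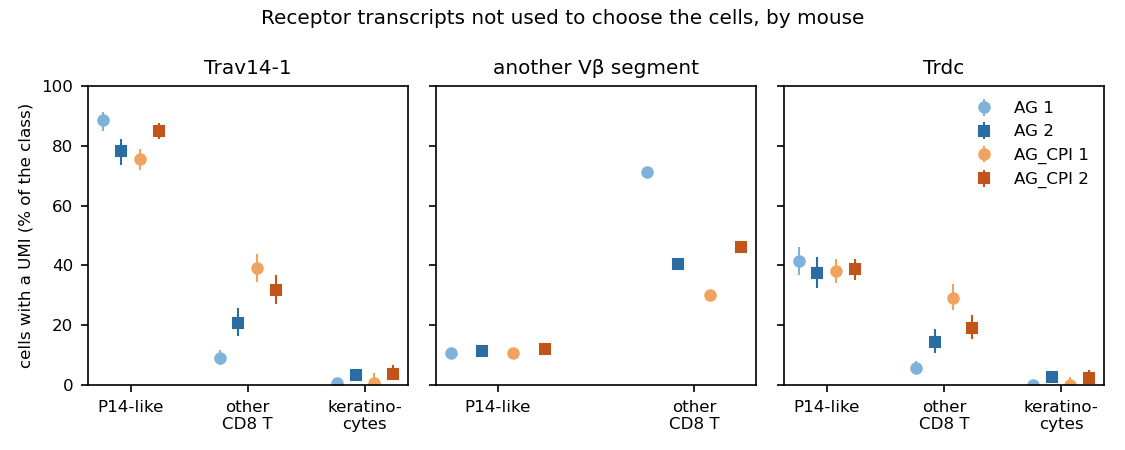
Share of cells with a UMI of Trav14-1, of any beta segment other than Trbv13-3, and of Trdc, in P14-like cells, other CD8 T cells and keratinocytes of each AG and AG_CPI mouse; bars are 95% exact binomial intervals, and the middle panel has points alone. Trav14-1 lay at 75.5% or more in all 4 P14-like sets and at 39.0% or less in the other CD8 T cells.

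Trdc, the constant gene of the delta chain of gamma-delta T cells, was also found in many members. It had a UMI in 41.5% and 37.6% of members in AG and 38.1% and 38.7% in AG_CPI, against 5.76%, 14.4%, 29.3% and 19.1% of other CD8 T cells and 0.106%, 2.74%, 0% and 2.36% of keratinocytes. The 0% in AG_CPI 1 rests on 142 keratinocytes and allows up to 2.11% by the same limit. Among members with Trav14-1, 42.6%, 37.1%, 41.1% and 39.9% had Trdc, and among members without it 32.7%, 39.2%, 28.9% and 31.9%. The shares of the members were alike in all 4 mice. Of 8 measured markers of gamma-delta T cells, 4 could be tested between AG_CPI and AG in P14-like cells. None passed, and Trdc changed by 0.11 on the log2 scale (SE 0.17, limma adjusted p = 0.858).

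Xist, transcribed from the inactive X chromosome of females, had a UMI in 62.8%, 66.3%, 65.2% and 73.5% of members. In AG_CPI 1 no keratinocyte of 142 had Xist and 16.9% had Ddx3y, a gene of the Y chromosome, while 0.69% of the members of that mouse had Ddx3y. The keratinocytes of the other 3 mice had Xist in 65.3% to 78.8% of cells. The other CD8 T cells of AG_CPI 1 lay between, with Xist in 41.3%. It was found in 54.7% of those with a Trav14-1 UMI and in 32.7% of those without. The comparison class of AG_CPI 1 thus also held cells unlike its keratinocytes in Xist, with and without Trav14-1. The origin of these cells was not tested. Members thus differed from the skin cells around them in AG_CPI 1, and results without this mouse are given below.

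P14-like cells were a larger part of the CD8 T cells in both AG_CPI mice than in either AG mouse. They made up 45% (41.8 to 48.3) and 53.6% (49.8 to 57.4) in AG and 56.8% (53.7 to 59.9) and 67.4% (64.6 to 70.1) in AG_CPI. The difference of the means was 12.8 percentage points, with SDs of 6.07 and 7.5 over 2 mice each. The exact permutation test gave p = 0.333, the smallest that 2 mice against 2 allow. Of all cells in the library, members made up 12.2% and 7.76% in AG and 33.4% and 35.2% in AG_CPI. These shares rest on the detection of Trbv13-3. With each cell thinned to 1500 UMIs the difference was 11.2 points.

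AG_CPI was then compared with AG within the P14-like cells, to ask how these cells differed between the groups once the labels' CPI was added. Levels below are means over cells, in UMIs per 10000 after scaling between mice, and a log2 fold change is taken on the log2(level + 0.1) scale, which understates changes of low genes. Of 6956 genes tested with limma-trend, 72 passed an adjusted p of 0.05 (1.04%), 38 higher (0.546%) and 34 lower (0.489%). In 42.3% of all tested genes the 2 mice of a group did not overlap those of the other, so that pattern alone is no mark of a change. Of the 72 calls, 13 had both mice of 1 group below a level of 0.1, 7 of them in AG_CPI and 6 in AG, and so entered the test through the other group. With 2 animals a group, p-values rest on few mice. Without AG_CPI 1 the test called 12 genes, without AG_CPI 2 39, without AG 1 241 and without AG 2 238, and with UMIs summed over cells in place of a mean per cell it called 5. Those 5 were Ifitm1, Itga1, Ccr2, Serpine2 and Prr5l. With no filter on low values it called 7, the same 5 with Il7r and Rgs10, so that every other call described below was lost in both settings. Of the 72 calls, 66 could be fitted without AG_CPI 1, where 11 stayed called, and 66 without AG_CPI 2, where 34 did. All 72 kept their direction in each setting in which they could be fitted.

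The granule genes did not move as a group. Gzma, a granule protease, stood at 37.8 and 24.3 in the AG mice and at 93.7 and 86.2 in the AG_CPI mice. The AG_CPI values were both above the AG values, and Gzma rose by 1.57 on the log2 scale (SE 0.17, limma adjusted p = 0.00105). Prf1 encodes perforin, which opens the target membrane to granzymes. It fell by 1.09 (SE 0.19, limma adjusted p = 0.0133), from 4.04 and 2.96 to 1.60 and 1.55. Gzmb, another granule protease, stood at 20.4 and 17.2 in AG and 16.1 and 11.4 in AG_CPI, a change of -0.46 (SE 0.17, limma adjusted p = 0.308). Gzmk was at 3.08 and 4.08 against 3.14 and 2.16 (-0.43, adjusted p = 0.467 in limma), and its groups overlapped. Nkg7, a granule membrane protein, was at 46.1 and 41.0 against 33.6 and 31.5 (-0.42, limma adjusted p = 0.176). Ctsw, a lysosomal protease of cytotoxic cells, was at 11.7 and 6.65 against 14 and 17.3 (0.81, limma adjusted p = 0.125). Of 14 tested granule genes on the fixed list of 15, 1 rose, 1 fell and 12 did not pass. Their median change was -0.085, beside -0.0038 over all genes. Gzma kept its call without either mouse of either group and lost it with summed UMIs and without the filter on low values. Prf1 lost it without AG_CPI 1 and without AG_CPI 2.

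The inflammatory chemokine genes Ccl5, Ccl4 and Ccl3 fell together. Ccl5 was at 221 and 196 in AG and at 87.6 and 101 in AG_CPI, without overlap, and fell by 1.14 (SE 0.11, limma adjusted p = 0.000969). Ccl4 fell by 1.09 (SE 0.20, limma adjusted p = 0.0166), from 64.7 and 37.7 to 23.3 and 22.9. Ccl3 fell by 1.82 (SE 0.31, limma adjusted p = 0.0133), from 23.2 and 8.79 to 3.66 and 4.29. In each of these 3 genes AG 1 was the higher AG mouse. Of the 12 tested chemokine and cytokine genes these 3 fell, none rose and 9 did not pass, with a median of 0.03. Ifng, the cytokine that induces antigen presentation, was at 9.96 and 3.79 in AG and at 4.45 and 4.55 in AG_CPI, overlapping (-0.44, SE 0.31, limma adjusted p = 0.636). Xcl1, a chemokine for cross-presenting dendritic cells, was at 6.15 and 1.33 against 2.78 and 3.48 and also overlapped. Csf1, the macrophage growth factor, was at 1.18 and 0.346 against 1.49 and 1.80 (1.2, limma adjusted p = 0.163). Ccl5 kept its call without either mouse of either group and lost it with summed UMIs and with no filter. Ccl3 and Ccl4 lost theirs without AG_CPI 1, and also among members with no Trdc UMI, where 28 genes were called in all. Tigit, Tox, Itgae, Itgb7, Itga4, Ccr1, Il10ra, Sh2d2a, Tnfrsf4, Ifi27l2a, Cst6, Tff1 and B4galnt4 were not called in those members either.

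Among chemokine receptors, 2 of 8 tested rose and none fell. Ccr2, the receptor for CCL2 on monocytes and effector T cells, was at 0.867 and 0.671 in AG and at 2.64 and 2.10 in AG_CPI, and rose by 1.51 (SE 0.20, limma adjusted p = 0.0032). Ccr1 rose by 1.08 (SE 0.21, limma adjusted p = 0.0241) from levels of 0.102 and 0.0835 to 0.304 and 0.306. Cxcr6, a receptor found on T cells in tissues, overlapped between the groups at 12.9 and 8.28 against 12.3 and 14.5 (0.37, limma adjusted p = 0.512). Cxcr3, the receptor for interferon-induced chemokines, was at 0.839 and 0.733 against 0.910 and 1.00 (0.26, limma adjusted p = 0.657). Cx3cr1, found on circulating effector cells, overlapped at 1.37 and 0.885 against 0.632 and 1.03. The median change over the 8 genes was 0.17. Ccr2 and Ccr1 both lost their calls without AG_CPI 1, and Ccr1 also without AG_CPI 2.

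The integrin genes Itga1, Itgae and Itgb7 rose and Itga4 fell. Itga1 encodes CD49a, which with its beta-1 partner binds collagen IV. It was at 0.609 and 0.522 in AG and at 2.13 and 1.82 in AG_CPI, an increase of 1.64 (SE 0.19, limma adjusted p = 0.00117). Itgae and Itgb7 encode the chains of CD103, which holds T cells to E-cadherin on epithelium. Itgae rose by 2.00 (SE 0.38, limma adjusted p = 0.0241), from 1.46 and 0.400 to 2.85 and 4.16. The AG mice differed more than 3-fold from each other in this gene. Itgb7 rose by 0.96 (SE 0.18, limma adjusted p = 0.0184), from 0.997 and 1.14 to 2.16 and 2.18. Itga4, the partner of beta-1 and beta-7 integrins in binding VCAM-1 and MAdCAM-1, fell by 1.41 (SE 0.28, limma adjusted p = 0.0324), from 0.721 and 1.61 to 0.327 and 0.370. Of 17 tested residency and adhesion genes, 3 rose, 1 fell and 13 did not pass, and 13 were above 0 with a median of 0.22. Itga1 kept its call in all 17 other settings, and Itgae lost it in 7, among them cells thinned to 1500 UMIs and members with no Krt5 or Krt14 UMI. Without AG_CPI 1 Itgb7 and Itga4 were not called, and without AG_CPI 2 Itgb7 was not.

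Cytokine receptors held further calls. Il7r, the receptor chain for the survival cytokine IL-7, stood at 0.719 and 0.809 in AG and at 2.33 and 2.91 in AG_CPI, and rose by 1.65 (SE 0.19, limma adjusted p = 0.00117). Il18r1, a chain of the IL-18 receptor, rose by 1.41 (SE 0.23, limma adjusted p = 0.0112), from 0.784 and 0.436 to 1.71 and 1.76. Il10ra, the ligand-binding chain of the IL-10 receptor, fell by 0.94 (SE 0.18, limma adjusted p = 0.0279), from 1.29 and 1.31 to 0.594 and 0.670. These were 2 risers and 1 faller among 16 tested members. Their median was 0.25. No other tested gene that marks naive, memory or recirculating cells passed. Ltb, which encodes lymphotoxin beta, was at 6.69 and 3.94 against 5.85 and 7.24, overlapping (0.34, limma adjusted p = 0.607). Tcf7, the transcription factor TCF-1 of stem-like T cells, was at 0.200 and 0.120 against 0.183 and 0.199, overlapping (0.18, limma adjusted p = 0.818). Klf2, which controls exit from tissue, was at 0.149 and 0.164 against 0.160 and 0.457. S1pr1 was too low to test. Of 6 tested naive, memory and egress genes only Il7r was called. Il7r kept its call without either mouse of either group and with no filter, and lost it with summed UMIs. Il18r1 and Il10ra lost theirs with summed UMIs, with no filter and without AG_CPI 1, and Il10ra also without AG_CPI 2.

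**Figure D2:**
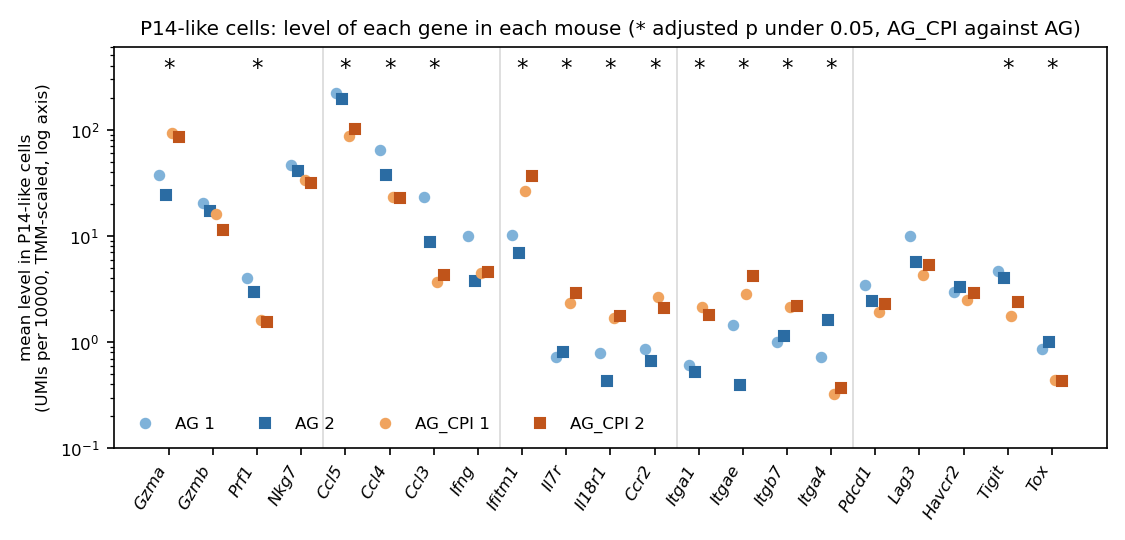
Mean level of 21 genes in the P14-like cells of each mouse, in UMIs per 10000 after TMM scaling, on a log axis; each point is 1 mouse and a star marks a call between AG_CPI and AG. Of the genes with a star, Gzma, Ifitm1, Il7r, Il18r1, Ccr2, Itga1, Itgae and Itgb7 were higher in both AG_CPI mice, and Prf1, Ccl5, Ccl4, Ccl3, Itga4, Tigit and Tox lower. Gzmb, Nkg7, Pdcd1, Lag3 and Havcr2 were also lower in both AG_CPI mice but were not called.

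Of the inhibitory receptors only Tigit passed. Tigit, which competes with the activating receptor CD226 for the same ligands, fell by 1.03 (SE 0.19, limma adjusted p = 0.0179), from 4.68 and 4.00 to 1.78 and 2.41. Cd226 itself rose by 1.23 (SE 0.22, limma adjusted p = 0.0166), from 0.499 and 0.303 to 1.06 and 1.04. Pdcd1, which encodes PD-1, stood at 3.42 and 2.43 in AG and at 1.93 and 2.3 in AG_CPI. The groups did not overlap, but the change of -0.43 (SE 0.20, 95% interval -0.86 to -0.0092) did not pass (limma adjusted p = 0.433). Lag3, a receptor for class II molecules, was at 9.93 and 5.71 against 4.33 and 5.30 (-0.64, SE 0.22, limma adjusted p = 0.273). Havcr2, or TIM-3, was at 3 and 3.34 against 2.51 and 2.93 (-0.22, SE 0.17, limma adjusted p = 0.683). Ctla4 overlapped at 0.976 and 0.854 against 0.984 and 0.722. Of 13 tested inhibitory receptors 1 fell and none rose, 11 were below 0, and the median was -0.30. Of 10 costimulatory receptors Cd226 rose and Tnfrsf4, which encodes OX40, fell by 1.01 (SE 0.22, limma adjusted p = 0.0445), with a median of -0.39. Tnfrsf9, or 4-1BB, was at 5.68 and 2.68 against 2.16 and 2.07 (-0.86, limma adjusted p = 0.196). Tnfrsf4 lost its call in 11 of 17 other settings. Without AG_CPI 1 neither Tigit, Cd226 nor Tnfrsf4 was called, and without AG_CPI 2 Cd226 was not.

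Transcription factors and signalling genes gave few calls. Tox, a factor of chronically stimulated T cells, fell by 0.94 (SE 0.19, limma adjusted p = 0.0345), from 0.859 and 1.00 to 0.444 and 0.430. Satb1, an organiser of chromatin in T cells, rose by 1.49 (SE 0.21, limma adjusted p = 0.00625), from 0.342 and 0.430 to 1.5 and 1.06. Of 17 tested fate factors these were the only calls, with a median of -0.03. Eomes was at 0.187 and 0.554 against 0.163 and 0.0312 (-1.22, SE 0.37, limma adjusted p = 0.18), Tbx21 overlapped at 0.689 and 0.385 against 0.490 and 0.496, and Id3, Zeb2 and Slamf6 changed by 0.20, 0.18 and 0.08 without passing. None of 16 genes that respond to antigen receptor signals passed (median 0.02, and 1.04% of all genes passed). Among them Nr4a1, an immediate response gene, was at 2.72 and 1.02 against 1.69 and 1.33, overlapping. Of 19 signalling genes Sh2d2a, a T cell adaptor, fell by 0.84 (SE 0.16, limma adjusted p = 0.0241). Tox held its call in 6 of 17 other settings, and neither Tox, Satb1 nor Sh2d2a held it without AG_CPI 1; Tox and Sh2d2a also lost it without AG_CPI 2, and Satb1 with summed UMIs and with no filter.

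**Figure D3:**
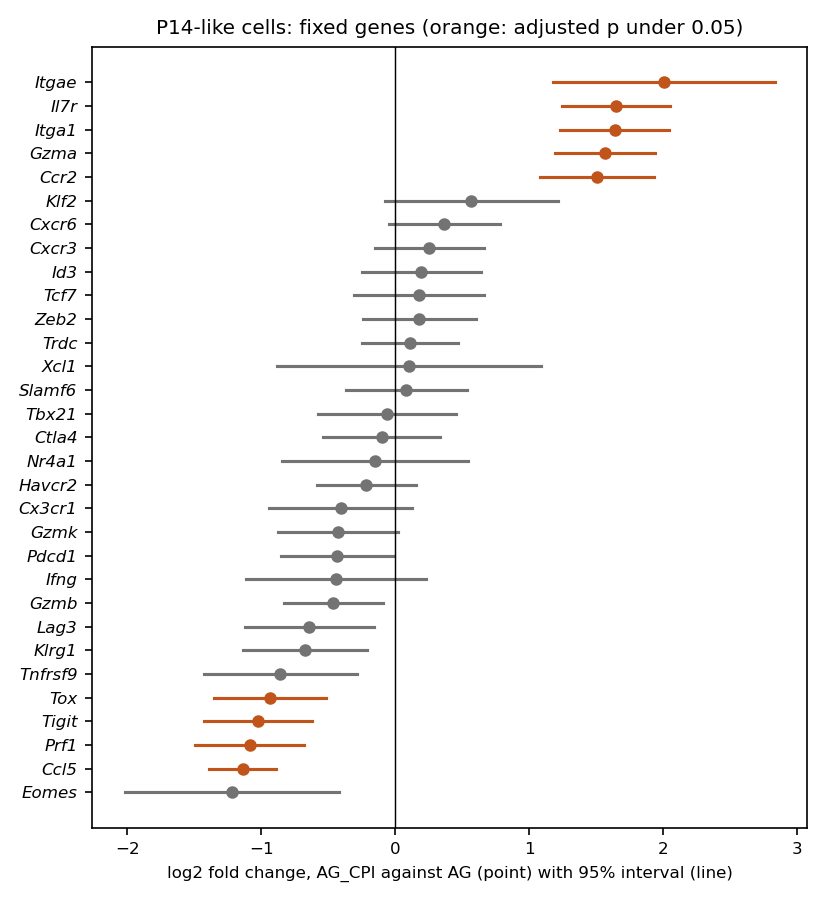
Log2 fold change between AG_CPI and AG in P14-like cells for the 31 tested genes of a fixed set of 34, with 95% intervals from limma-trend; orange marks calls. Itgae, Il7r, Itga1, Gzma and Ccr2 lay above 0, Ccl5, Prf1, Tigit and Tox below it, and the intervals of Havcr2, Ctla4, Ifng and Tcf7 covered 0.

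Further genes were named by rank. Ifitm1, an interferon-induced membrane protein that hinders virus entry, was at 10.1 and 6.88 in AG and at 26.2 and 36.7 in AG_CPI. It rose by 1.88 (SE 0.20, limma adjusted p = 0.000969) and stayed called in all 17 other settings. Rgs10, which shortens G protein signals, rose by 1.52, from 1.16 and 0.814 to 2.81 and 3.14. Emb, a partner of lactate transporters, rose by 1.24 from 0.706 and 0.926 to 1.81 and 2.31. Pag1, an adaptor that holds the inhibitory kinase Csk at the membrane, rose by 1.19, the nuclear receptor gene Rora by 1.23 and Gpr55 by 1.25. The sugar transferase gene B4galnt4 was called higher, without a fold given here. It passed the filter through the AG_CPI mice alone, with 7 and 4 UMIs in AG against 39 and 71, and was not called with no filter. Bcl2a1b, a survival gene with near-identical copies that share its reads, rose by 1.14, the only call among 14 survival and death genes (median -0.18). Without AG_CPI 1 neither Emb, Pag1, Rora, Gpr55 nor Bcl2a1b was called, and without AG_CPI 2 Emb, Pag1 and Gpr55 were not. B4galnt4 was not tested without either AG_CPI mouse.

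Among fallers, Serpine2, an inhibitor of serine proteases, went from 0.420 and 0.514 to 0.0469 and 0.0392. It fell by 1.98 (SE 0.21, limma adjusted p = 0.000969) and stayed called in all 15 other settings that tested it, also with no filter. It reached a level of 0.1 in the AG mice alone, with 69 and 56 UMIs against 8 and 11, and was not tested without either AG mouse. Prr5l, which binds the kinase complex mTORC2, fell by 1.65 from 0.562 and 0.521 to 0.112 and 0.0964. Slc17a6, a glutamate transporter of vesicles, was called lower, at 0.486 and 0.237 against 0.0275 and 0.0110, which is 66 and 31 UMIs against 5 and 3. It too passed the filter through the AG mice alone, was not tested without either of them and was not called with no filter, so no fold is given. Gimap7, a GTPase of lymphocytes, fell by 1.81, and Tff1, a trefoil peptide, by 1.24. Ifi27l2a, an interferon-induced gene, fell by 1.60 from 7.77 and 16 to 3.43 and 3.79. In unscaled levels keratinocytes held 19.7 and 14.8 of it in AG and 6.48 and 7.46 in AG_CPI, and the other CD8 T cells 6.65 and 15.2 against 5 and 7.37; the part of this RNA in the fall was not tested. It was the only call among 29 interferon response genes, whose median was -0.03. Without AG_CPI 1 neither Ifi27l2a nor Tff1 was called, and without AG_CPI 2 Tff1 was not. Among the beta segments Trbv15 fell by 1.46, from 0.384 and 0.633 to 0.101 and 0.134, and was not called without AG_CPI 1. Isg15 was at 1.53 and 2.61 against 1.03 and 1.2 (-0.80, limma adjusted p = 0.156).

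Genes of cell division lay mostly below 0 without passing. None of 19 cell cycle genes was called, but 16 were below 0, with a median of -0.58, after the dividing cells had been left out by rule. Stmn1, a regulator of microtubules, was at 1.64 and 3.12 against 1.25 and 0.661 (-1.22, SE 0.30, limma adjusted p = 0.0817). None of 15 glycolysis genes was called, with a median of -0.19. Of 5 tested killer lectin-like receptors none was called. Klrc2 was at 0.136 and 0.169 against 0.397 and 0.363 (0.93, limma adjusted p = 0.0565).

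RNA of other cell types was present at low levels and moved with the groups in part. Summed over 17 keratinocyte markers, P14-like cells held 5.34 and 7.23 UMIs per 10000 in AG and 3 and 3.97 in AG_CPI, and 13 of 14 tested markers were below 0. Krt17 and Perp fell, by 1.31 and 1.17. Cst6 and Cd9 also fell, by 1.57 and 1.24, from unscaled levels in members of 0.419 and 0.569, and 0.634 and 0.799, against levels in the AG keratinocytes of 19.0 and 23.7 for Cst6 and 17.8 and 9.96 for Cd9. The hair follicle keratins Krt25 and Krt71 were called lower, with 69 and 26 and with 60 and 24 UMIs in AG and 0 and 5 each in AG_CPI. They passed the filter through the AG mice alone and were not called with no filter, so no fold is given. With members limited to cells with no Krt5 or Krt14 UMI, 55 genes were called, and Cst6, Cd9, Gzma, Ccl5, Il7r, Itga1 and Prf1 were among them. Without AG_CPI 1 none of Krt17, Perp, Cst6, Cd9, Krt25 and Krt71 was called. The part of keratinocyte RNA in the other falls was not tested. Macrophage markers summed to 5.35 and 16.1 in AG and 9.79 and 8.19 in AG_CPI, and those of dendritic and Langerhans cells to 3.07 and 25.2 against 12.3 and 9.93; none of 11 and 5 tested markers passed. Innate lymphoid markers summed to 2.50 and 5.26 against 2.48 and 2.3, fibroblast markers to 0.0455 to 0.0815, endothelial markers to 0.0584 to 0.156 and B cell markers to 0.166 to 0.393. Xcr1, Lum, Emcn, Cd79a and Ms4a1 had no UMI in any P14-like set. Depth also differed, lowest in AG_CPI 1. With each cell thinned to 1500 UMIs 28 genes were called, among them Ifitm1, Gzma, Il7r, Itga1, Ccr2, Ccl5, Ccl3, Ccl4 and Prf1. At that equal depth Tigit, Cd226, Tnfrsf4, Tox, Itgae, Itga4, Sh2d2a, Emb, Pag1, Rora, Gpr55, Bcl2a1b, B4galnt4, Gimap7 and Prr5l were not called.

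Members of 1 mouse were not uniform. Gzma was absent from the median AG member and stood at 38.5 and 34.4 UMIs per 10000 in the median AG_CPI member. Among cells thinned to 1500 UMIs, 41.2% and 42.3% of members had a Gzma UMI in AG, and 69.5% and 69.7% in AG_CPI. Before thinning the shares were 45.7%, 49.4%, 71.2% and 73.8%. Thinned keratinocytes had Gzma in 0.531%, 6.16%, 4.23% and 16.9% of cells. The change in the mean thus went with more positive cells. In proportion the mean rose by more than this share, so levels per positive cell were higher as well. The 90th percentile of Gzma was 129 and 73.9 in AG and 274 and 244 in AG_CPI. Ccl5 was found in most members of each mouse, 87.4% and 89.5% against 75.5% and 79.7%, and its level in the median member was 137 and 134 in AG against 45.3 and 54.5 in AG_CPI. Ccl5 in keratinocytes reached 38.0% in AG 2 and 33.9% in AG_CPI 2, so a background of this gene was common there. Ccl3 was concentrated in few cells: the top 10% of members held 70.0% and 72.4% of its sum in AG and 90.5% and 88.3% in AG_CPI.

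**Figure D4:**
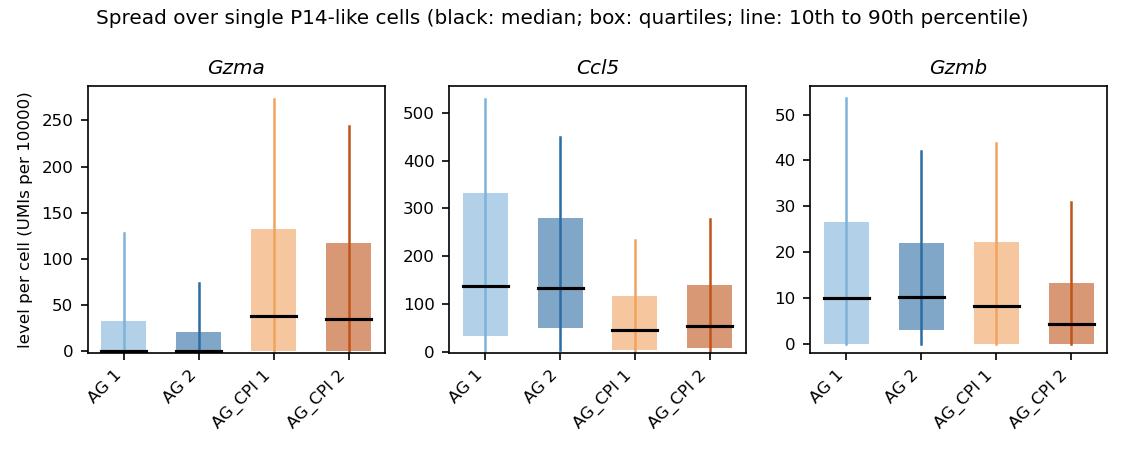
Level per cell of Gzma, Ccl5 and Gzmb in the P14-like cells of each mouse, in UMIs per 10000; the black line is the median, the box the quartiles and the thin line the 10th to 90th percentile. The Gzma median was 0 in AG and 38.5 and 34.4 in AG_CPI, and the Ccl5 median was 137 and 134 against 45.3 and 54.5.

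For Il7r the thinned share was 9.37% and 10.2% in AG and 24.5% and 31.2% in AG_CPI, and for Itga1 it was 8.67% and 7.18% against 26% and 22.4%. Itgae was found in 17.3% and 4.42% against 29.3% and 42.5%, Pdcd1 in 34.9% and 24.3% against 20% and 28.1%, and Tcf7 in 2.11% to 2.24% of members in all 4 mice. Thinned keratinocytes had Il7r in at most 3.56% of cells, Itga1 in 2.82%, Itgae in 1.97%, Pdcd1 in 0.964% and Tcf7 in 1.41%. The shares of Tcf7 therefore lay close to that background.

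Within each mouse the members were split by whether a thinned cell had a Gzma UMI, as a description with no test. Members with Gzma had higher mean levels of Gzmb in all 4 mice, 28.7 against 13.8 and 22.5 against 12.5 in AG and 19.7 against 9.04 and 12.7 against 8.02 in AG_CPI. The same held for Ccr2, Itga1 and Gzmk. Pdcd1 did not follow Gzma, being higher with Gzma in 1 of 4 mice. Split by a Pdcd1 UMI instead, positive members had more Ccl3 and Ccl4 in all 4 mice. Ccl4 was 97.2 against 46.1 and 60.8 against 29.5 in AG, and 35.8 against 19.7 and 35.2 against 18.9 in AG_CPI. Ccl4 was thus lower in the AG_CPI mice among members with and without Pdcd1. Itga1 and Itgae were lower in the Pdcd1-positive members of all 4 mice.

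Next, P14-like cells were compared with the other CD8 T cells of the same mouse, averaged over both groups. Of 7492 genes, 106 passed (1.41%), 42 higher in P14-like cells (0.561%) and 64 lower (0.854%). Receptor genes were among them, and since cells were chosen by a receptor transcript these are a description: Trav14-1 was higher by 2.33, Trdc by 1.24, Trac by 0.84 and Trbc2 by 0.70, while Trbv15 was lower by 2.90. Several effector genes were higher in P14-like cells. Gzmk was at 3.08, 4.08, 3.14 and 2.15 in P14-like cells and at 0.812, 2.11, 2.76 and 1.98 in the other cells of AG 1, AG 2, AG_CPI 1 and AG_CPI 2, a difference of 0.75 (SE 0.12, limma adjusted p = 0.0121). Gzma was higher by 0.94 (SE 0.16, limma adjusted p = 0.0205), Ccr2 by 0.84 (SE 0.12, limma adjusted p = 0.00862), Ccl5 by 0.70 and Ccl4 by 0.69. These are means over 4 mice: in both AG_CPI mice Ccl5 was lower in P14-like cells (87.5 and 101) than in the others (99.0 and 113). Of 14 granule genes 4 were higher, none lower and 10 did not pass (median 0.34). Killer lectin-like receptors Klrd1, Klrc1 and Klrk1 were higher by 0.63, 0.88 and 0.63, 3 of 5 tested (median 0.63). Of 13 inhibitory receptors Lag3, Havcr2 and Klrc1 were higher, by 1.08, 0.91 and 0.88, and Cd160 was lower by 0.65. Some of these differences lay mostly in AG. In unscaled levels Lag3 was at 9.79 and 5.61 against 1.09 and 2.78 in AG, and at 4.37 and 5.42 against 4.01 and 4.78 in AG_CPI. Gzma was at 37.3 and 23.9 against 6.67 and 12.0 in AG, and at 94.5 and 88.2 against 88.1 and 76.7 in AG_CPI.

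Further genes higher in P14-like cells in all 4 mice included regulators of T cell signals and fate. Ctse, an aspartic protease, was at 0.424, 0.531, 0.417 and 0.484 against 0.107, 0.211, 0.249 and 0.217, higher by 0.95 (SE 0.13, limma adjusted p = 0.00714). Cblb, a ubiquitin ligase that restrains receptor signals, was higher by 0.72, Nr4a2, a nuclear receptor induced by antigen, by 0.68, Camk4, a calcium-dependent kinase, by 0.59, Rbpj, the DNA-binding partner of Notch, by 0.56, Ndfip1, an activator of ubiquitin ligases, by 0.33 and Id2, an inhibitor of E proteins, by 0.32. The integrin gene Itgav was higher by 0.62, and Cxcr6 by 0.29.

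Trat1 and Tcf7 had the smallest p among the genes named as lower in P14-like cells. Trat1, an adaptor of the receptor complex, was at 0.189, 0.0988, 0.0189 and 0.0289 in P14-like cells against 2.35, 1.13, 0.0689 and 0.147, lower by 1.79 (SE 0.15, limma adjusted p = 0.000289). Tcf7 was lower by 1.28 (SE 0.12, limma adjusted p = 0.000599), at 0.200, 0.120, 0.183 and 0.199 against 1.26, 1.04, 0.264 and 0.242. Cd5, which dampens receptor signals, was lower by 0.58, Cd7 by 0.87, Gpr18 by 0.96, Fam53b by 0.81, Ass1 by 0.56, Cxcr3 by 0.57, Il7r by 0.52 and Itgae by 0.55. The ferritin chain Fth1 was lower by 0.31. The ion channel genes Tmem176a and Tmem176b and the epithelial gene Trim29 were called lower, without a fold given here. Their unscaled levels in P14-like cells were below 0.1 in every mouse. They passed the filter through the other CD8 T cells alone. Il7r and Itgae lay below the other cells in both AG mice and above them in both AG_CPI mice. Tcf7 differed more between the classes in AG than in AG_CPI. Of 11 naive, memory and egress genes 2 were lower, 10 lay below 0, and the median was -0.36. Macrophage markers (4 of 14 lower), keratinocyte markers (4 of 15 lower) and genes of the mitochondrial genome (11 of 13 lower, median -0.285) moved with the class as well. Their part in the other differences was not tested.

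These class differences rested on few animals. Without AG_CPI 2 the test called 6 genes, without AG_CPI 1 32, without AG 1 324 and without AG 2 560. Trat1 and Tcf7 were called in each. Ccr2, Trdc and Cd160 were also called without AG_CPI 1, but not without AG_CPI 2, as were Ctse, Gpr18 and Fam53b. Gzmk, Gzma, Ccl5, Ccl4, Klrd1, Klrc1, Klrk1, Lag3, Havcr2, Il7r and Itgae were called in neither. The same held for Cblb, Nr4a2, Camk4, Rbpj, Ndfip1, Id2, Itgav, Cxcr6, Cd5, Cd7, Ass1, Cxcr3, Fth1, Tmem176a, Tmem176b and Trim29. Against the cells with another beta segment and no Trav14-1 it called 239, and 75 of the 106 were still called. Itgae and Tmem176a were not among them, and Tmem176b and Trim29 were not tested there. All 101 that could be fitted there kept their direction.

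Last, the difference between AG_CPI and AG was itself compared between P14-like and other CD8 T cells. Of 7492 genes 74 passed (0.988%), 43 with a higher change in P14-like cells (0.574%) and 31 with a lower one (0.414%). Il7r differed by 1.86 (SE 0.17, limma adjusted p = 0.00399), with 0.720 and 0.808 going to 2.33 and 2.90 in P14-like cells, and 2.52 and 2.02 to 1.66 and 2.24 in the others. Itgae differed by 1.53 (SE 0.20, limma adjusted p = 0.00765), from 1.46 and 0.399 to 2.84 and 4.15 against 2.99 and 1.47 to 2.59 and 3.38. Cd69, an early activation and retention molecule, differed by 1.19 (SE 0.13, limma adjusted p = 0.00549). It was at 2.35, 1.69, 2.32 and 2.36 in P14-like cells and at 4.27, 3.27, 1.78 and 1.94 in the others. Here the other CD8 T cells were the ones whose levels lay apart between groups. Tcf7 (2.00) showed the same arrangement, and Trat1 (2.13) was lower in AG_CPI in both classes, by more in the others.

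In the other direction, Ccl5 differed by -1.75 (SE 0.23, limma adjusted p = 0.00806). It went from 221 and 196 to 87.5 and 101 in P14-like cells and was at 52.0 and 93.1 against 99.0 and 113 in the others, so that in AG_CPI both classes lay within 87.5 to 113. Tox differed by -1.47 (SE 0.22, limma adjusted p = 0.0177), at 0.384 and 0.702 against 0.755 and 0.847 in the others. Entpd1, the ectoenzyme CD39, differed by -1.56 and Havcr2 by -1.81. Havcr2 was at 3, 3.34, 2.51 and 2.92 in P14-like cells and at 0.468, 1.42, 2.49 and 2.92 in the others. Of 13 inhibitory receptors 3 differed, Havcr2, Ctla4 and Entpd1, all downward, with a median of -1.56. Of 14 granule genes Gzmk and Nkg7 differed, both downward, with a median of -0.56. Gzma differed by -1.60 and did not pass (SE 0.33, limma adjusted p = 0.0532), being at 6.79 and 12.0 against 88.1 and 75.8 in the other CD8 T cells. Itga1 (0.57, SE 0.17, limma adjusted p = 0.183) and Ccr2 (-0.34, SE 0.23, limma adjusted p = 0.61) did not pass either, so that their rise was not shown to differ from that in other CD8 T cells. The values of Gzma, Itga1 and Ccr2 are against the whole class. In it Trav14-1 had a UMI in 9.02% and 20.8% of AG cells and 39.0% and 31.9% of AG_CPI cells. Their results against the cells with another beta segment and no Trav14-1 are not given here.

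**Figure D5:**
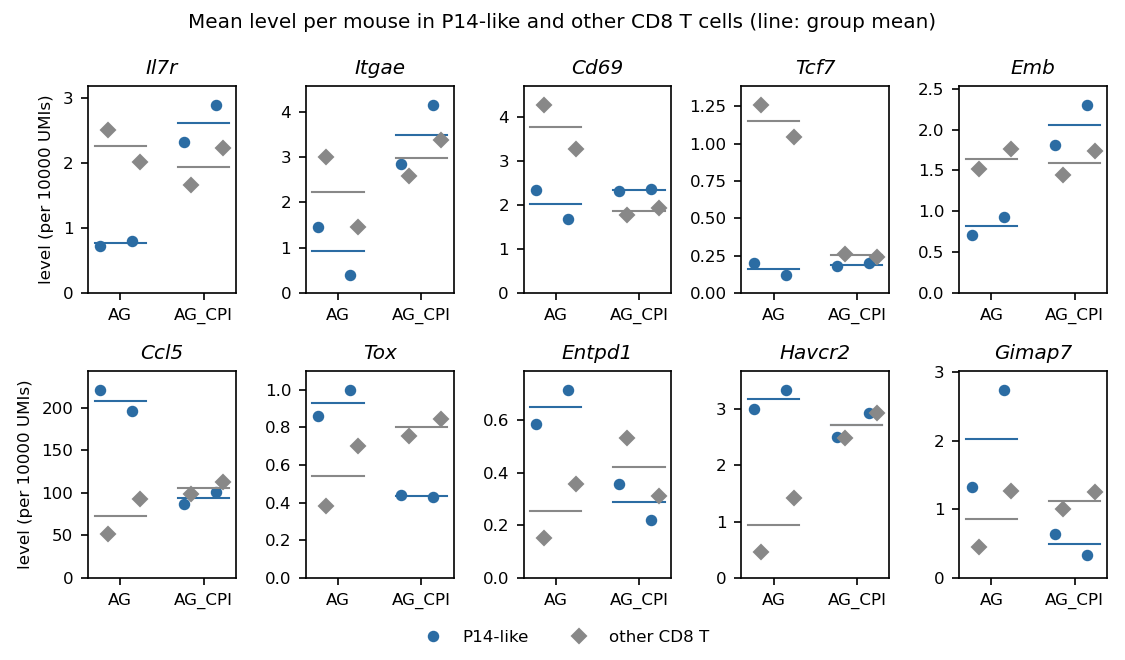
Mean level of 10 genes whose change differed between the classes, in UMIs per 10000 after scaling, for P14-like cells (circles) and other CD8 T cells (diamonds) of each mouse, with group means as lines. Havcr2 and Ccl5 lay apart between the classes in AG and close together in AG_CPI, and Il7r rose in P14-like cells from 0.720 and 0.808 to 2.33 and 2.90.

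These calls needed both AG_CPI mice. Without AG_CPI 1 only Gimap7 was called, without AG_CPI 2 1 gene that is not named here, without AG 1 333 and without AG 2 588. Cells with P14 segments among the other CD8 T cells, more frequent in AG_CPI, move with these values. So did other RNA: of 15 keratinocyte markers 14 lay above 0 (median 0.40, Lgals7 called), as did 13 of 13 genes of the mitochondrial genome (median 0.148) and 70 of 80 ribosomal protein genes (median 0.157). The part of these in the other differences was not tested. With the class limited to cells with another beta segment and no Trav14-1, 305 genes were called, and 68 of the 74 stayed called, among them Il7r, Itgae, Cd69, Ccl5, Tox, Entpd1 and Havcr2.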

How the data were processed

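Single-cell libraries were made from mouse skin with a 10x Genomics 5′ kit, and per the submitters' processing notes Cell Ranger 3.1 and the mm10 build were used. The deposited tables hold log10 values of 1 plus UMIs per 10000 for each cell, which the authors scaled by each cell's total. This was read from the values, which gave whole UMIs for 100% of entries at a tolerance of 0.05 under base 10 and for 66.9% to 69.8% under the natural logarithm. No count column was used, so no count model was run. Values were taken back to UMIs per 10000. Cells held 1501 to 14995 UMIs over 16158 gene columns, which held 95.4% to 96.7% of the UMIs.

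Cells were gated by the rule in the report, levels were averaged per mouse, scaled by trimmed mean of M values and tested as log2(level + 0.1) with limma-trend (limma 3.58.1, R 4.3.3; Python 3.11.15) and Benjamini-Hochberg adjustment at 0.05. Genes needed 10 UMIs and a level of 0.1 in 2 libraries, and 11 genes of the rule were left out. The class comparison and the interaction kept the mouse as a block. The procedure was tested on simulated data for AG_CPI against AG in P14-like cells. It called 40.2% of genes changed 2-fold and 97.1% of those changed 4-fold. A gene that did not pass may thus still have changed. Samples are biological replicates per the labels, with no batch or date given. Named genes were 34 fixed genes, up to 12 per direction with the smallest p and no overlap, and 2 to 4 of each list. The members and lists were chosen with earlier results of these data known. Scrublet in scanpy 1.11.5 scored doublets, which were removed in 1 alternative. Other alternatives changed the pseudocount, filter, scaling, weighting, depth, cell rule, block and mice. The NO_AG libraries held too few members to test.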

Additional observations from a re-analysis of the deposited data

Results flagged for a closer look

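The difference between AG_CPI and AG in P14-like cells was compared with that in other CD8 T cells by an interaction term. It passed limma's adjusted p of 0.05 for each gene given here, over 2 mice a group. It was higher in P14-like cells by 1.86 on the log2 scale for Il7r, 1.19 for Cd69, 0.924 for Ly6e, 1.3 for Rgs10, 0.867 for Tmsb10, 1.29 for Emb, 2.00 for Tcf7, 1.39 for Rgcc, 1.77 for Znrf1, 1.53 for Itgae, 1.32 for Evl and 1.47 for Tesc. For Il7r, Ly6e, Rgs10, Emb and Itgae the P14-like cells of both AG_CPI mice lay above those of both AG mice, while the other CD8 T cells overlapped between groups. For Cd69, Tcf7, Tmsb10, Rgcc, Znrf1, Evl and Tesc the other CD8 T cells of both AG_CPI mice lay below those of both AG mice, and for Tmsb10, Znrf1, Evl and Tesc the P14-like cells of both AG_CPI mice also lay above those of both AG mice.

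The difference was lower in P14-like cells, at -2.27 for Tff1, -2.3 for Gimap7, -1.75 for Ccl5, -2.19 for Itga4, -1.47 for Tox, -0.866 for Ifi27l2a, -1.83 for Serpine2, -0.68 for Arpc5, -1.11 for Nfatc1, -1.56 for Entpd1, -1.81 for Havcr2 and -0.443 for Tmsb4x. Tff1, Ccl5, Tox, Nfatc1, Havcr2 and Arpc5 were lower in P14-like cells of both AG_CPI mice and higher in the other CD8 T cells of both. For Gimap7, Itga4, Ifi27l2a, Serpine2 and Entpd1 the P14-like cells were lower in both AG_CPI mice and the other CD8 T cells overlapped between groups. For Tmsb4x the P14-like cells overlapped and the other CD8 T cells were higher in both. Of all these genes only Gimap7 stayed called without AG_CPI 1 and none without AG_CPI 2. All stayed called against the other CD8 T cells that had another beta segment and no Trav14-1.

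Transcripts of the Y chromosome, outside the main measurement, were seen in 1 library. Ddx3y had a UMI in 0.69% of the P14-like cells and 3.40% of the other CD8 T cells of AG_CPI 1, and in no T cell of these classes in AG 1, AG 2 or AG_CPI 2, where a count of 0, taken to allow 3 cells, allows up to 0.829% of P14-like cells.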

How the results depend on the processing

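The test of AG_CPI against AG called 72 genes. It called 7 with no filter on low values, 5 with UMIs summed over cells, 28 with only cells that had no Trdc UMI, 28 with each cell thinned to 1500 UMIs, 34 with 8 class means in 1 fit without a mouse block, and 12 to 241 with 1 mouse left out. The class comparison called 106, 12 with no filter, 206 without Trdc cells, 239 against cells with another beta segment and no Trav14-1, and 6 to 560 with 1 mouse left out. The interaction called 74, 180 without Trdc cells, 305 against cells with another beta segment, and 1 to 588 with 1 mouse left out. With no filter the interaction called 0 genes in limma, where 1233 had an unadjusted p under 0.05. With 1 mouse left out the lone mouse of a group is assumed to vary like the others. The causes were not tested. No called gene changed direction in these settings. Genes that were not called did, among them Ifng, to 0.2395, and Nr4a1, to 0.5088, between the groups without AG 1, neither called there. Xcl1 changed sign and was called, at -0.9616 between the groups without AG 2 and at -0.2791 between the classes without AG 1. With 1 mouse left out it ranged from -0.9616 to 1.165 and from -0.2791 to 0.4513. The labels share only replicate numbers. Deviations of same-numbered mice had r = -0.175 over 6956 genes, and the replicate block called 114 genes. The crossed pairing, chosen after seeing the data like the comparisons that use Trav14-1, called 77. Depth limits genes at levels near 0.1 UMIs per 10000, and shares of cells cover counting error only. With 2 mice a group the exact permutation test of a share cannot go below 0.333.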

Other observations

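Groups of genes chosen after their values were seen gave further calls. Between AG_CPI and AG in P14-like cells, 4 of 80 ribosomal protein genes rose (Rpl13a, Rpl36al, Rps27 and Rps29), with a median change of -0.0106 over the 80, where 0.546% of all tested genes rose. Of 13 genes of the mitochondrial genome, mt-Atp8 rose by 0.88 and the others were not called. Without AG_CPI 1 neither mt-Atp8 nor any of the 4 ribosomal protein genes was called. Between P14-like and other CD8 T cells, 74 of 80 ribosomal protein genes lay below 0 with a median of -0.114, of which Rpl29 was called.

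The whole profiles of P14-like cells gave a root mean square log2 difference of 0.393 between the AG mice and 0.286 between the AG_CPI mice over 6956 genes. Mice of different groups lay 0.377 to 0.41 apart, so the AG mice differed about as much from each other as from the AG_CPI mice.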
